A study of Mus musculus with 6 samples.

Results

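The cyclic AMP phosphodiesterases described here are 10 mouse genes, Pde3a, Pde3b, Pde4a, Pde4b, Pde4c, Pde4d, Pde7a, Pde7b, Pde8a and Pde8b, out of 52550 mouse genes in the deposited table. They were found by gene symbol among the rows with a mouse Ensembl identifier, each symbol on a single row, and the counts that the table gives for each genotype were compared. The genes were chosen with these counts already known, so the differences between genotypes are given as a description. Muscle RNA of 3 male FLExDUX4 mice and 3 male wild-type (WT) littermates was sequenced with QuantSeq, which primes at the poly(A) tail and reads near the 3′ end, so that counts do not grow with transcript length. FLExDUX4 mice are hemizygous for an inverted human DUX4 transgene at the Rosa26 locus on a B6(Cg) background. No Cre recombinase was used in these mice, and the transgene is known for a low, leaky expression that is not limited to muscle. The labels give quadriceps and an age of 13 weeks for both genotypes, whereas the methods of the study name triceps and a younger age. The transgene itself was not analysed here.

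Cyclic AMP (cAMP) is the second messenger that adenylyl cyclases make when hormones such as adrenaline bind receptors coupled to the stimulatory G protein Gs, and in skeletal muscle it promotes glycogen breakdown and supports fiber growth. Phosphodiesterases (PDEs) end the signal by hydrolysing cAMP. PDE4, PDE7 and PDE8 enzymes act on cAMP alone, and PDE3 enzymes act on cAMP but are inhibited by cyclic GMP, which couples both messengers. PDE4 enzymes are the targets of rolipram, while PDE7 and PDE8 enzymes are insensitive to it.

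The columns used here hold a sum of the counts over the mice of a genotype, which amounts to a single value per genotype. The deposited columns of single mice match no sample label and were not used, and neither were the authors' p-values. No replicate check and no test was therefore made here, and a single mouse could decide a difference. FLExDUX4 mice had 13110125 gene counts in all and wild-type mice 18367364, and these totals were scaled to CPM (counts per 1e+06 counts of the scaled total) with the TMM method. Each log2 ratio of FLExDUX4 to wild-type is given with its 95% counting interval, an exact Clopper-Pearson interval that leaves out the spread between mice. All 6 myofiber markers listed (Acta1, Ckm, Mylpf, Tnnt3, Myh4 and Pvalb) were abundant. Their summed level after TMM scaling was 111256 CPM in FLExDUX4 and 111439 CPM in wild-type muscle.

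All 10 genes had counts in both genotypes and passed the filter on low counts, which kept 13396 genes. Together they had 5044 counts in FLExDUX4 and 6935 in the wild-type total, or 389 and 374 CPM. The log2 ratio of these sums was 0.06 (counting interval 0.00446 to 0.11), and scaling to the ERCC and SIRV spike-in RNAs instead gave -0.22. The sum of the cAMP phosphodiesterase transcripts thus differed little between the totals, and its direction depended on the scaling. Spike-in scaling moved the median of all genes from about 0 to -0.28, so that every ratio below is lower by that amount on this scale.

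At a log2 ratio of at least 0.5 in size (1.41-fold), Pde3a, Pde3b, Pde4c, Pde7a and Pde8b were higher in FLExDUX4 mice, Pde7b and Pde8a were lower, and Pde4a, Pde4b and Pde4d lay within these limits. The counts were 5 higher, 2 lower and 3 within. Of all genes kept, 15.7% were higher and 15.7% lower by this measure, and nothing is read from the comparison with these shares because the genes were chosen on the same totals. The gene nearest to the limit was Pde3b at 0.54 on the outer side and Pde4a at 0.45 in size on the inner side. The median of the 10 log2 ratios was 0.34, and that of all genes kept was -0.0010. With spike-in scaling 2 genes (Pde3a and Pde4c) were higher and 3 (Pde4a, Pde7b and Pde8a) lower by at least 0.5, beside 9.11% and 28.5% of all genes kept on that scale.

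**Figure D1:**
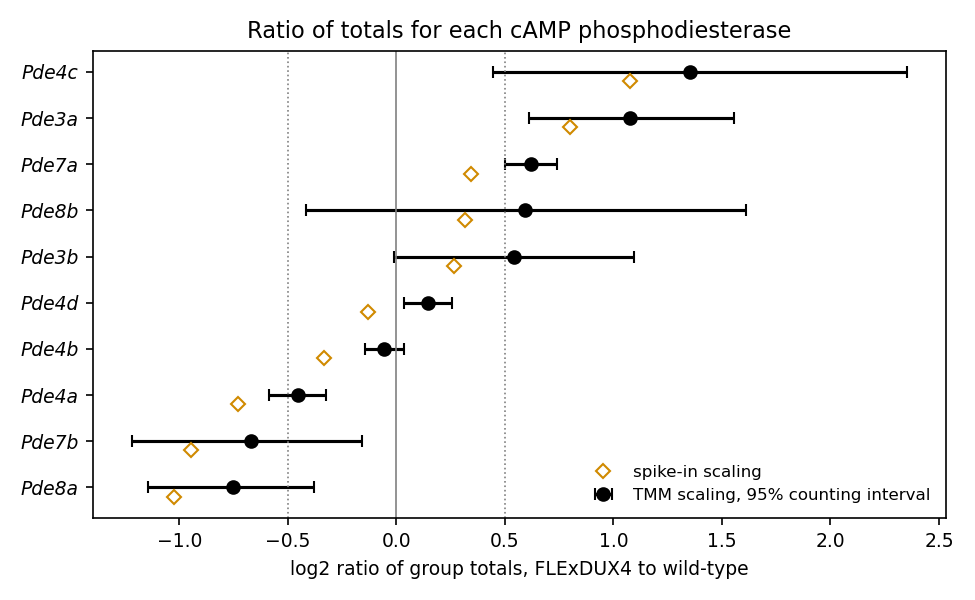
Log2 ratio of the group totals (x axis) for each of the 10 genes (y axis), with the 95% counting interval as bars under TMM scaling and open diamonds for spike-in scaling. Dotted lines mark a ratio of 0.5 in size. Pde4c has the highest ratio (1.35) and Pde8a the lowest (-0.75).

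PDE4 transcripts made up most of the counts. PDE4A, PDE4B, PDE4C and PDE4D are the cAMP-specific, rolipram-sensitive enzymes, and many of their isoforms start at promoters of their own inside the genes. Pde4b was the most abundant of the 10 genes in both genotypes, with 1638 counts in FLExDUX4 and 2434 in wild-type mice. This was 126 and 131 CPM. The log2 ratio was -0.05 (counting interval -0.15 to 0.04) and -0.33 with spike-in scaling. Pde4d had 1186 and 1533 counts, or 91.4 and 82.6 CPM. Its log2 ratio was 0.15 (counting interval 0.04 to 0.26), which turned to -0.13 with spike-in scaling. With TMM scaling, Pde4b and Pde4d were thus near the same level in both genotypes.

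Among the 4 abundant members, Pde4a had the lowest ratio. It had 730 counts against 1431 in wild-type mice, or 56.3 against 77.1 CPM. The log2 ratio was -0.45 (counting interval -0.59 to -0.33) and -0.73 with spike-in scaling. Pde4c, in contrast, was close to the detection limit with 29 counts against 16, or 2.24 and 0.862 CPM. Its log2 ratio of 1.35 had a wide interval, from 0.45 to 2.35. The 4 PDE4 genes together had 3583 counts in FLExDUX4 and 5414 in the wild-type total, a log2 ratio of -0.08 (counting interval -0.14 to -0.02).

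PDE7A and PDE7B form a rolipram-insensitive, cAMP-specific family. The genes of this family went apart. Pde7a had 1161 counts in FLExDUX4 and 1080 in wild-type mice, more counts from the smaller total. This was 89.5 against 58.2 CPM, a log2 ratio of 0.62 (counting interval 0.50 to 0.74). With spike-in scaling the ratio was 0.34. Pde7b had 45 counts against 103, or 3.47 and 5.55 CPM, and a log2 ratio of -0.67 (counting interval -1.22 to -0.16). With the counts of a pseudogene that lies within Pde7b on the same strand added, the ratio was -0.27 (counting interval -0.70 to 0.14). The ratio of Pde7a to Pde7b counts, which needs no scaling, was 25.8 in FLExDUX4 mice (counting interval 19.2 to 35.6) and 10.5 in wild-type mice (counting interval 8.56 to 13.0). With the pseudogene's counts added to Pde7b, it was 14.9 (counting interval 11.8 to 19.0) and 8.0 (counting interval 6.68 to 9.64).

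Pde8a and Pde8b encode cAMP-specific enzymes of very high affinity, known to act at low cAMP levels. Pde8a had 82 counts in FLExDUX4 and 198 in the wild-type total, or 6.32 and 10.7 CPM. Its log2 ratio was -0.75 (counting interval -1.14 to -0.38), the lowest of the 10 genes. Pde8b had 19 and 18 counts, or 1.46 and 0.970 CPM, and its log2 ratio of 0.59 had an interval from -0.41 to 1.61. A difference in Pde8b was therefore not detectable at this depth. The ratio of Pde8a to Pde8b counts was 4.32 in FLExDUX4 mice (counting interval 2.60 to 7.53) and 11.0 in wild-type mice (counting interval 6.78 to 18.9).

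Pde3a and Pde3b encode the enzymes inhibited by cyclic GMP. PDE3A is known from heart, platelets and vascular smooth muscle, and PDE3B from fat cells, where insulin activates it to limit lipolysis. Pde3a had 96 counts in FLExDUX4 and 65 in the wild-type total, or 7.40 and 3.50 CPM. The log2 ratio was 1.08 (counting interval 0.61 to 1.56) and 0.80 with spike-in scaling. With the counts of the 2 same-strand genes that overlap Pde3a added, the totals were 113 and 114 counts and the ratio was 0.50 (counting interval 0.12 to 0.89). Pde3b had 58 and 57 counts, or 4.47 and 3.07 CPM, and a log2 ratio of 0.54 whose interval held 0 (-0.01 to 1.09). The family together had 154 counts against 122, a log2 ratio of 0.85 (counting interval 0.50 to 1.21). With the overlapping genes added it had 171 counts in each genotype, a ratio of 0.52 (counting interval 0.20 to 0.83).

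**Figure D2:**
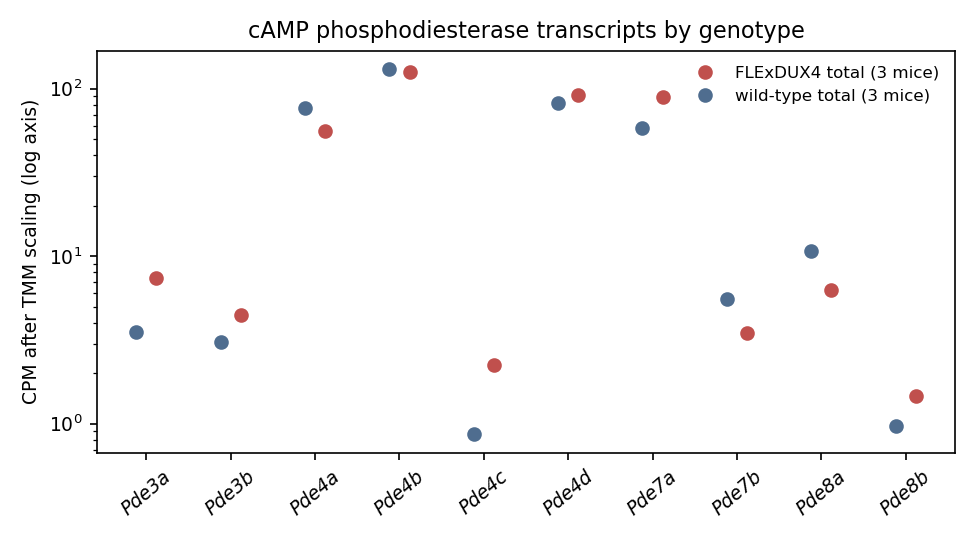
Level of each gene (x axis) in CPM after TMM scaling on a log axis (y axis), with 1 point for each genotype total of 3 mice. Pde4b, Pde4d, Pde4a and Pde7a sit at 56.3 CPM or more in both genotypes, and the other 6 genes at 10.7 CPM or less.

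The order of the levels was compared within each genotype, where the scaling has no part, from the counts of each gene alone. In wild-type mice the order was Pde4b, Pde4d, Pde4a, Pde7a, Pde8a, Pde7b, Pde3a, Pde3b, Pde8b and Pde4c. Within counting error, Pde4d could not be separated from Pde4a there, Pde3a from Pde3b, or Pde8b from Pde4c. In FLExDUX4 mice the order was Pde4b, Pde4d, Pde7a, Pde4a, Pde3a, Pde8a, Pde3b, Pde7b, Pde4c and Pde8b. Pde4d could not be separated from Pde7a there, and no neighbors among the 6 genes below Pde4a could be separated. Pde7a stood below Pde4a in wild-type mice, with a ratio of 0.755 (counting interval 0.697 to 0.817), and above it in FLExDUX4 mice, with a ratio of 1.59 (counting interval 1.45 to 1.75). The ratio of Pde4b to Pde7a counts was 2.25 (counting interval 2.10 to 2.42) in wild-type and 1.41 (counting interval 1.31 to 1.52) in FLExDUX4 mice. The ratio of Pde4d to Pde4a counts was 1.07 (counting interval 0.996 to 1.15) in wild-type and 1.62 (counting interval 1.48 to 1.78) in FLExDUX4 mice.

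As shares of the summed counts, Pde4b took 32.5% (counting interval 31.2 to 33.8) in FLExDUX4 and 35.1% (counting interval 34.0 to 36.2) in wild-type mice. Pde4d took 23.5% and 22.1%. Pde4a took 14.5% (counting interval 13.5 to 15.5) and 20.6% (counting interval 19.7 to 21.6). Pde7a took 23.0% (counting interval 21.9 to 24.2) and 15.6% (counting interval 14.7 to 16.4). These 4 genes held all but 6.52% and 6.59% of the counts. The makeup of the abundant transcripts thus differed mainly in Pde4a and Pde7a. The PDE4 genes as a family took 71.0% (counting interval 69.8 to 72.3) in FLExDUX4 and 78.1% (counting interval 77.1 to 79.0) in wild-type mice. Without Pde7a, the genes outside PDE4 had 300 counts against 441, a log2 ratio of -0.04 (counting interval -0.26 to 0.18).

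**Figure D3:**
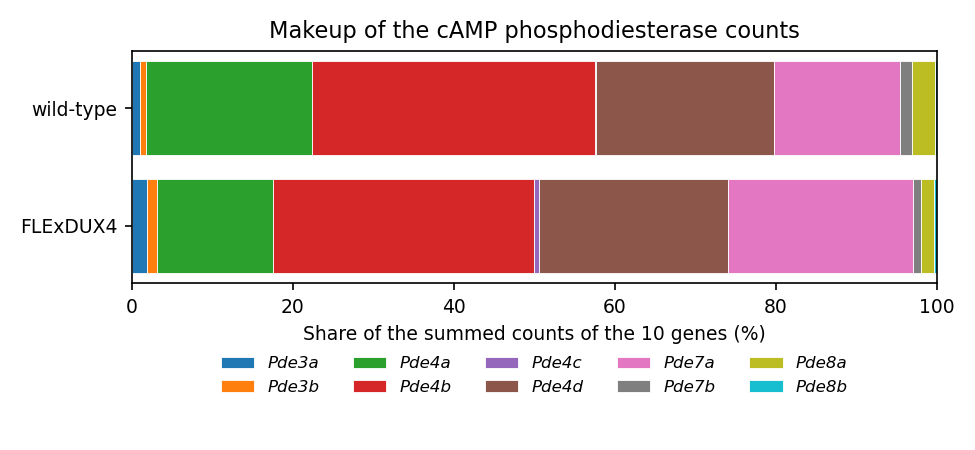
Share in percent (x axis) that each of the 10 genes takes of their summed counts in the FLExDUX4 and the wild-type total (y axis). The Pde7a segment is 23.0% against 15.6% and the Pde4a segment 14.5% against 20.6%.

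How far a ratio lies from 0 depended on the depth in the table as a whole. Among the 4096 genes kept with under 100 counts over both totals, 31.9% were higher and 33.9% lower by at least 0.5. This was the range of Pde4c and Pde8b, with 45 and 37 counts. Among the 6573 genes in the middle range of depth, from 100 counts up, the range of Pde3a, Pde3b, Pde7b and Pde8a, the shares were 11.5% and 10.5%. Among the 2727 most deeply counted genes, from 1000 counts up, the range of Pde4a, Pde4b, Pde4d and Pde7a, they were 1.43% and 0.917%. Of the 10 genes, Pde7a alone lay past 0.5 in this last range, with 2241 counts over both totals. These shares describe the table and test nothing, since the genes were chosen on the same totals.

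**Figure D4:**
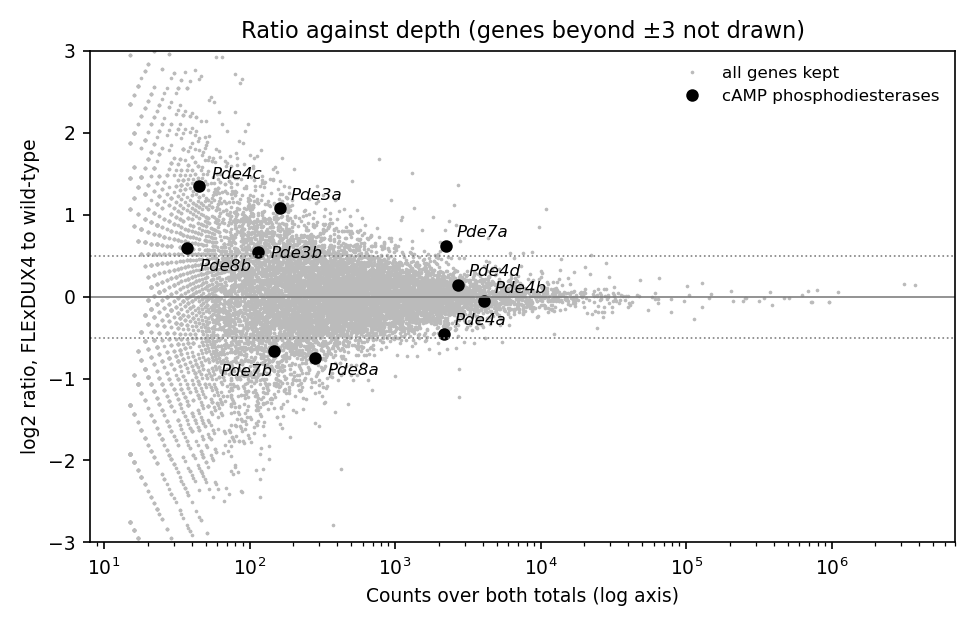
Log2 ratio of the group totals (y axis) against the counts over both totals on a log axis (x axis) for all 13396 genes kept (gray) and the 10 phosphodiesterases (black), with dotted lines at 0.5 in size; 194 genes beyond 3 in size are not drawn. The gray cloud narrows with depth, and Pde7a lies at its upper edge at 2241 counts while Pde4c and Pde8b lie within its wide part.

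The genes lie on 8 chromosomes of GRCm38, and each deposited start equals that of the GENCODE annotation. Pde7a (chromosome 3, 19223108 to 19311322, minus strand) has 3 annotated protein-coding transcripts, and Pde4a (chromosome 9, 21165714 to 21213248, plus strand) also has 3. Pde4b (chromosome 4, 102087543 to 102607259) has 9, with 9 distinct starts. Pde4d (chromosome 13, 108449948 to 109953461) spans 1504 kb and has 12 coding transcripts with 12 starts and 6 ends. The counts are per gene, so the isoforms of a gene were counted as a single value. Genes that overlap the scarce members had counts of their own. Pde3a is overlapped by Gm43958 with 16 and 38 counts and Gm10400 with 1 and 11, both on the same strand, and by the antisense gene Gm28523 with 0 and 6. These come to 17 and 55 counts, against the 96 and 65 of Pde3a. The antisense gene Gm48420, which overlaps Pde8b, had 29 and 26 counts, more than Pde8b itself. The pseudogene Gm17229 lies within Pde7b on the same strand and had 33 and 32 counts. For Pde7a, the overlapping antisense gene Gm16093 had 0 counts in both totals, and no annotated gene overlaps Pde4a or Pde4b. The strand setting of the counting was not given in the sources used here.

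Promoters of 7 of the 10 genes (Pde4a, Pde4b, Pde4c, Pde4d, Pde7b, Pde8a and Pde8b) were found in a RefSeq table on GRCm38.p6, which gives 16 start sites for them. The 250 bases before each start were searched on both strands for TGACGTCA, the cAMP response element that CREB binds, and for its short form TGACG, which is also contained in the full element. On the opposite strand the short form reads as CGTCA. The full element was in 0 of the 16 windows and in 1.55% of the 32851 windows of all genes. The short form was in 3 of the 16, against 17.8% of all. The windows with the short form are shown because cAMP is known to raise the transcription of some PDE4 genes, with the match in capitals, read 5′ to 3′ on the strand of the gene. A match is a description of the letters and no binding site. For Pde4b, 30 bases are shown because the window overlaps annotated exons of the gene.
Pde4a, 250 bases before the start inside the gene (chr9:21183851-21184100, plus strand): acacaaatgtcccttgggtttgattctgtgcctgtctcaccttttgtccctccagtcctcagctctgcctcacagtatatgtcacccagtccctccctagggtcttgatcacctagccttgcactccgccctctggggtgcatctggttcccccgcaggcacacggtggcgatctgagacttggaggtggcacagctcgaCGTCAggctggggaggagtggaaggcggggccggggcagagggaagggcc
Pde8a, 250 bases before the start (chr7:81213015-81213264, plus strand): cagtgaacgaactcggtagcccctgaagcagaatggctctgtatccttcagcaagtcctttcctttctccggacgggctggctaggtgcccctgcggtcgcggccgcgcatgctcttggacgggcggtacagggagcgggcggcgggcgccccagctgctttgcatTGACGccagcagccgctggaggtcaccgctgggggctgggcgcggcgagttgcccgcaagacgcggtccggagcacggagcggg
Pde4b, around the match 34 bases before the start (chr4:102421509-102421538, plus strand): gatttggctgcaCGTCAattttctcatctg
The matches begin 50 bases before the start for Pde4a and 84 bases before it for Pde8a. With TMM scaling, Pde4a and Pde8a were lower in FLExDUX4 mice and Pde4b was near the same level. No relation of these letters to the ratios was examined.

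Among the other phosphodiesterases, Pde6d had the most counts. Of the 6 genes for enzymes that hydrolyse both cAMP and cyclic GMP, all were kept, with 2 higher and 3 lower and a median of -0.34. All but Pde10a had under 100 counts over both totals, a range in which 31.9% of all genes kept were higher and 33.9% lower. Pde10a had 32 and 77 counts (log2 ratio -0.74), Pde1a 18 and 44 (-0.75), Pde11a 9 and 32 (-1.26), Pde1c 22 and 16 (0.96) and Pde2a 12 and 4 (1.99). Their summed level of 7.94 and 10.1 CPM was small beside the 389 and 374 CPM of the 10 cAMP phosphodiesterases. Of the 5 genes for enzymes specific to cyclic GMP, 2 were kept, Pde5a with 38 and 24 counts (1.17) and Pde9a with 4 and 13 (-1.07). Of the 3 small subunits of the PDE6 family, Pde6d alone was kept, with 265 and 305 counts (0.31).

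The rest of the cAMP pathway was listed by role. Over all 11 lists, the other phosphodiesterases included, 75 of 90 genes were kept, of which 11 (14.7%) were higher and 12 (16.0%) lower by at least 0.5, beside 15.7% of all genes kept in each direction, and the median log2 ratio was 0.01. Of 15 Gs-coupled receptors, 9 were kept, with 3 higher, 3 lower and a median of -0.02. The higher ones were Ptgir (1.77), Vipr1 (1.54) and Ptger4 (1.12), each from under 30 counts a total. The lower ones were Vipr2 (-0.96, from 4 and 12 counts), Crhr2 (-0.64, from 78 and 174) and Adrb3 (-0.52, from 9 and 19). The counting intervals of Vipr2 (-3.16 to 0.65) and Adrb3 (-1.89 to 0.65) held 0. Calcrl had 139 and 202 counts and a ratio of -0.02 (counting interval -0.35 to 0.30). Of 7 G protein alpha subunits, 6 were kept with a median of -0.03. Gnas, which encodes the stimulatory subunit, was at 0.02 (counting interval -0.02 to 0.06), Gnao1 at 0.19, Gnai2 at -0.09, Gnai1 at -0.16 and Gnai3 at -0.63 (counting interval -0.97 to -0.30). Gnal had 15 counts against 1, a ratio of 3.89 (counting interval 1.72 to 9.82). Of 10 adenylyl cyclases, 8 were kept, and 0 of them lay past 0.5 in either direction (median 0.04). Adcy9 and Adcy2, which make up most of their counts, had ratios of -0.04 and 0.12, Adcy4 was highest at 0.37, Adcy6 stood at 0.17 and Adcy7 at -0.13.

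Downstream of cAMP, 8 of 9 genes for protein kinase A (PKA) subunits and inhibitors were kept, with a median of 0.06. The regulatory subunit gene Prkar2b was higher (0.72, from 53 and 46 counts), Prkar2a was at 0.18, the inhibitor Pkig at 0.10, the inhibitor Pkia at -0.12 and the catalytic subunit Prkacb at -0.32. Among 5 other cAMP-binding effectors, all kept (median 0.14), Rapgef4, which encodes EPAC2, was higher (1.59, from 72 and 34 counts), Bves was at 0.48, Rapgef3 at 0.01 and Popdc2 at -0.31. Of 11 anchoring proteins, all kept (median -0.06), Akap10 was higher (0.52), Akap6 was at 0.29, Akap7 at -0.46 and Akap12 at -0.33. Akap5 had 0 counts in FLExDUX4 and 21 in wild-type mice. With 3 counts put in place of the 0 it was 4.89-fold lower, and the counting interval of its log2 ratio reached up to -1.86. Pde4dip, the anchor for PDE4D known as myomegalin, had 13117 and 18582 counts and a ratio of 0.01 (counting interval -0.02 to 0.05). The CREB factors and coactivators were all kept, 8 of 8, and 0 lay past 0.5 (median 0.12), with Atf1 (0.31) and Ep300 (0.30) highest and Crem (-0.47) and Crtc1 (-0.47) lowest. Of 11 CREB-responsive genes (median -0.01), Per1 was higher (0.71) and Nr4a2 (-2.79), Fos (-2.10) and Pck1 (-0.53) were lower, while Ppargc1a stood at 0.40. These genes answer to many other signals as well. With spike-in scaling Prkar2b, Akap10 and Per1 fell within 0.5, while Prkacb (-0.59), Popdc2 (-0.59), Akap7 (-0.73), Akap12 (-0.60), Akap9 (-0.52), Crem (-0.75), Crtc1 (-0.74), Nr4a1 (-0.61) and Nr4a3 (-0.50) lay past it on the lower side.

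**Figure D5:**
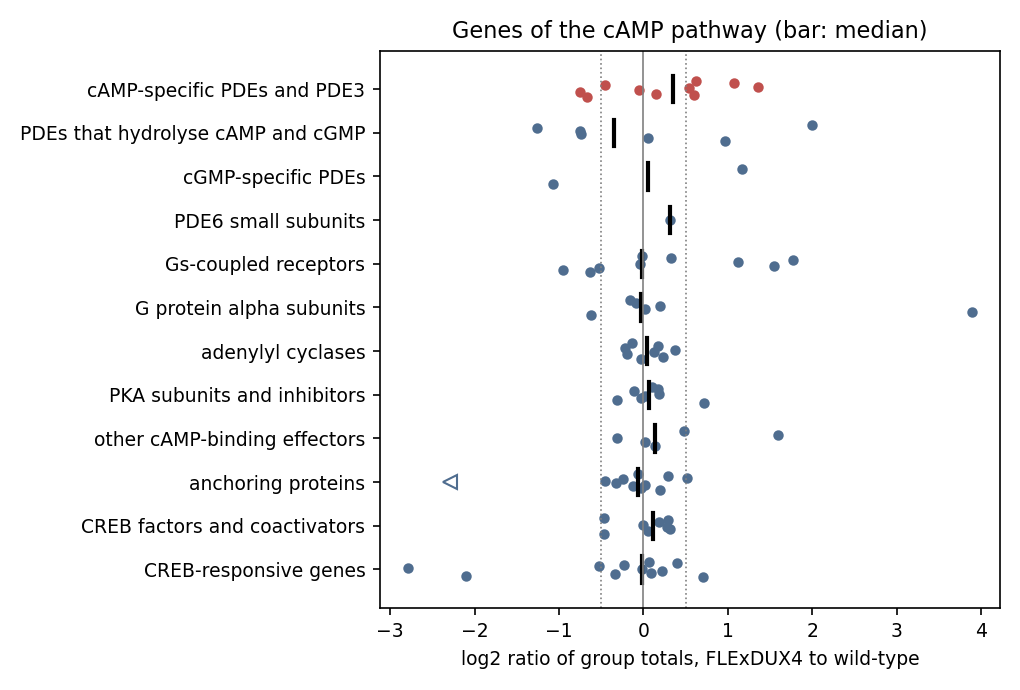
Log2 ratio of the group totals (x axis) for each gene kept in the phosphodiesterase list (red) and the other lists of the cAMP pathway (blue), with the list median as a black bar and dotted lines at 0.5 in size. The open triangle places Akap5, which had 0 counts in FLExDUX4 mice, at a floor of 3 counts. The adenylyl cyclases and the CREB factors lie within 0.5, and the 10 phosphodiesterases spread from -0.75 to 1.35.

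Several cell types other than myofibers express these genes, and in whole muscle fewer cells of a type and less RNA per cell cannot be told apart. Of 7 adipocyte markers, 6 had a ratio above 0, none was at 0 counts, and the summed level was 389.3 CPM in FLExDUX4 and 306 CPM in wild-type mice (led by Fabp4, at 0.11). Cfd (0.88, 113 against 61.6 CPM), Adipoq (0.70) and Retn (0.69) were higher by at least 0.5, and Lep (-0.82, from 12 and 31 counts) was lower. All 4 smooth muscle markers had a ratio above 0, with 77.4 and 60.8 CPM in sum (led by Acta2, at 0.38), and Cnn1 was higher by at least 0.5 (1.80, from 30 and 12 counts). Of 5 endothelial markers, 1 was above 0 and 3 were lower by at least 0.5, with 155 and 181 CPM in sum. The lower ones were Kdr (-0.56, from 632 and 1334 counts), Tek (-0.63, from 80 and 178 counts) and Cldn5 (-1.34, from 17 and 63 counts). Pecam1, the most counted of the list in FLExDUX4 mice, was at 0.06 (counting interval -0.07 to 0.20) and Cdh5 at -0.03 (counting interval -0.19 to 0.14). The 6 immune markers summed to 24.5 and 24.9 CPM. Their sum was carried by Csf1r (0.01), while of the 4 kept Ptprc was at 0.43, Cd68 at -0.64 and Adgre1 at -0.66 (median -0.31). The list had 2 of the 6 at 0 counts in wild-type mice and 0 of the 6 in FLExDUX4 mice. Cd3e was at 3 counts in FLExDUX4 and 0 in wild-type mice. All 4 fibroblast markers had a ratio above 0, with 1075 and 958 CPM (led by Dcn, at 0.04). Col1a1 was higher by at least 0.5 (0.53, 293 against 202 CPM), and Lum was at 0.48. The 3 red blood cell markers were at 989 and 785 CPM (led by Hbb-bs, at 0.36), and the 3 peripheral nerve markers at 84.2 and 81.0 CPM. By at least 0.5, 15.7% of all genes kept were higher and 15.7% lower. Among those with under 100 counts over both totals, the range of Lep, Cnn1 and Cldn5, these shares were 31.9% and 33.9%. Of all genes kept, 49.9% had a ratio above 0, and 25.2% with spike-in scaling. On that scale 4 of the 7 adipocyte, 3 of the 4 smooth muscle, 0 of the 5 endothelial, 1 of the 4 kept immune, 2 of the 4 fibroblast, 2 of the 3 red blood cell and 1 of the 3 nerve markers were above 0. So were 0 of the 6 myofiber markers, whose median was -0.30, beside -0.28 for all genes kept. The part of these cell types in the ratios of the phosphodiesterases was not tested.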

How the data were processed

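QuantSeq libraries of 3 FLExDUX4 and 3 wild-type male mice were sequenced. Per the methods and processing notes, the authors used Cutadapt (1.16) for trimming and STAR (2.5.3a) for alignment to GRCm38 (Ensembl 90) with ERCC and SIRV sequences. The notes also name featureCounts (1.6.2). The deposited counts used here are raw sums over the mice of a genotype. The authors' mean, fold change and p-value columns, from DESeq2, and 6 columns of single mice whose names match no sample label were not used, so the test per sample that had been planned was replaced by a description.

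Spike-ins (99 of 52649 features) were left out of the library sizes. Totals were scaled by TMM over the 13396 genes kept by filterByExpr (edgeR 4.0.16, R 4.3.3), and 0.5 was added to each total before the log2 ratio. Intervals (scipy 1.17.1, Python 3.11.15) were run on simulated counts that had counting error alone, which says nothing about the spread between mice. Alternatives were other scalings, filters, a pseudocount of 5, other fold limits and, chosen after seeing the data, the addition of overlapping same-strand genes.

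The 10 genes and all lists were chosen with earlier results of these data known. Named genes are the 10 members, pathway genes past 0.5 in size, up to 2 of the highest and 2 of the lowest of each list with at least 100 counts over both totals, and the most counted marker of each cell type. Some genes that this rule names are not reported here. Gnai2, Adcy2, Pde4dip, Cd3e, Cd68, Adgre1, Ptprc, Cfd, Adipoq, Retn, Lep, Cnn1, Tek, Cldn5, Pecam1, Cdh5, Col1a1, Lum, Akap9, Nr4a1, Nr4a3, the other myofiber markers and the genes overlapping members were named beside this rule, after their values were seen. A pair of totals holds no pattern by which to name like genes.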

Additional observations from a re-analysis of the deposited data

How the results depend on the processing

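No paired analysis was possible because no column of a single mouse carries a sample label, and none was mapped by its values. For the same reason leaving out each replicate in turn was not run, and no result has a replicate check. With spike-in totals, 2 of the 10 genes were higher by at least 0.5 in place of 5, beside 9.11% of all genes kept. On this scale 21 pathway genes were lower in place of 12, beside 28.5% of all genes kept. The log2 ratio of the summed counts of the 10 genes was -0.22. At a limit of 1, 2 of the 10 genes were higher and 0 lower, and 7 pathway genes were higher and 5 lower, beside 5.99% and 7.43% of all genes. At a limit of 0.25, 20 pathway genes were higher and 19 lower, beside 26.8% and 26.9% of all genes. With at least 10 counts in each total, 7 pathway genes were lower, beside 11.1% of all 12007 genes. When counts of overlapping same-strand genes were added, an alternative chosen after seeing the data, 5 of the 10 genes were higher and 1 was lower, with Pde7b within the limit. Spike-in totals moved 4 of the 10 genes beyond their counting interval (Pde4a, Pde4b, Pde4d and Pde7a) and changed the sign of Pde4d. Under RLE, upper quartile, gene totals, a pseudocount of 5 and both changes of the filter, all 10 ratios stayed within their counting intervals. What moved the spike-ins was not tested. Depth limits Pde4c and Pde8b most, with 45 and 37 counts over both totals.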
